A study of Mus musculus with 2 samples.

Results

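The autosomal family of miR-15, miR-16, miR-195a and miR-497a was examined in cultured vascular smooth muscle cells of diabetic and control mice. Its 8 members were taken by name from the 1909 mature microRNAs in the tables: mmu-miR-15a-5p, mmu-miR-15a-3p, mmu-miR-15b-5p, mmu-miR-15b-3p, mmu-miR-16-5p, mmu-miR-16-1-3p, mmu-miR-195a-5p and mmu-miR-497a-5p. All 8 were detected in both libraries. Small RNA was sequenced from cells of the thoracic aorta of male mice aged 10 to 12 weeks. The db/db group came from type 2 diabetic mice labelled BKS.Cg-m+/+Leprdb/J, which lack a working leptin receptor, and the db/+ group from control mice labelled Lepr+/-. Both cultures grew in DMEM/F-12 medium that held antibiotics and 10% fetal bovine serum, and the number of mice per culture is not given in the sources used here. Since each group had 1 library, the differences below are between those libraries, and the genotypes could not be compared by a test.

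MicroRNAs are short RNAs that repress messenger RNAs, and pairing of the seed, bases 2 to 8, largely sets which messengers are bound. Each hairpin precursor yields a 5p and a 3p strand, of which the guide is usually retained and the passenger degraded. The miR-15/16 family is known for lowering cyclins, cyclin-dependent kinases and the survival factor BCL2, and for slowing entry into the cell cycle. In human smooth muscle cells, the counterpart of miR-195a is known as a brake on proliferation and migration. Transcription as a pair or cluster is typical: miR-15a with miR-16-1, miR-15b with miR-16-2, and miR-195a with miR-497a.

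The sequences of the 5 guide strands are shown because their common seed is what makes them a family. They are RefSeq mature sequences on GRCm38.p6, written 5′ to 3′ with the seed in capitals.
miR-16-5p: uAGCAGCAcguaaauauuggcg
miR-15a-5p: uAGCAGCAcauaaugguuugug
miR-15b-5p: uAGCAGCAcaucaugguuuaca
miR-195a-5p: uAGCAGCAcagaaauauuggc
miR-497a-5p: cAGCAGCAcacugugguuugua
From base 2 the 5 strands were identical through base 9, and they diverged after that. Counted without gaps from the 5′ end, miR-16-5p and miR-195a-5p differed at 2 of 21 bases. The other pairs were less alike, from 4 of 22 bases for miR-15a-5p and miR-15b-5p to 11 of 22 for miR-16-5p and miR-497a-5p. Reads of miR-16-5p and miR-195a-5p could therefore be confused, and the rule for counting reads that match several names is not given in the labels.

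The members lie at 3 loci of GRCm38, the assembly also called mm10. Mir15a (chr14:61632027-61632110) and Mir16-1 (chr14:61631880-61631972) are 54 bases apart on the minus strand inside the long non-coding RNA gene Dleu2. Mir15a lies outside the annotated exons of Dleu2, and Mir16-1 overlaps 1 of them. Mir15b (chr3:69009772-69009835) and Mir16-2 (chr3:69009902-69009996) are 66 bases apart on the plus strand, in an intron of Smc4, which encodes a condensin subunit. Mir497 (chr11:70234717-70234800) and Mir195a (chr11:70235042-70235135) are 241 bases apart on the plus strand, with no host gene in GENCODE M21. Mir497b is annotated over Mir497 on the opposite strand.

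Hairpins of miR-16 are printed because the guide is the same at both loci and only the 3p strand tells them apart. Capitals mark the 5p and then the 3p mature form, from RefSeq on GRCm38.p6.
Mir16-1: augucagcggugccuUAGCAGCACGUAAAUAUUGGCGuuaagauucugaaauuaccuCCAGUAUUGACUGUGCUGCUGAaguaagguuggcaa
Mir16-2: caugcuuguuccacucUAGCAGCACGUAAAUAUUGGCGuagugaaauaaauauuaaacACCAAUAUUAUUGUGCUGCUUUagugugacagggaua
Counts of miR-16-5p thus cannot be assigned to chromosome 3 or 14. The 3p forms, miR-16-1-3p and miR-16-2-3p, differed at 10 of 22 bases aligned from the 5′ end and were counted separately.

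The db/db library held 24295112 counts over 833 detected microRNAs, and the db/+ library 25915732 over 881. Levels are given as CPM, counts per 1000000 microRNA counts of the library, and a ratio is the db/db CPM over the db/+ CPM with a 95% counting interval. The smooth muscle markers summed to 1635 CPM in db/db and 1691 CPM in db/+. Of these, 5 of 6 were past 50 counts in a library, though miR-133a-3p had 1 count in each. The sum was mostly miR-143-3p, with a mean of 1185 CPM over both libraries and a ratio of 0.971. It hid markers that went opposite ways. Ratios were 0.795 for miR-145a-5p and 0.977 for miR-145a-3p, but 1.32 for miR-143-5p and 1.93 for miR-1a-3p. Blood markers, in which miR-16 is also abundant, summed to 6.75 CPM in db/db and 6.48 CPM in db/+ over 7 microRNAs, a ratio of 1.04 (0.835 to 1.30). That sum was mostly miR-486a-5p, with 147 of 164 counts in db/db and 150 of 168 in db/+, while miR-451a had 14 in db/db and 17 in db/+. Among the 7, miR-142a-3p, miR-223-3p and miR-144-3p had 0 counts in both libraries, which allows up to 0.123 CPM in db/db and 0.116 CPM in db/+. The 2 endothelial markers summed to 2.92 CPM in db/db and 0.270 CPM in db/+, a ratio of 10.8 (4.99 to 27.9), and the 6 epithelial markers to 0.906 CPM in db/db and 0.270 CPM in db/+, so both lists were higher in db/db but rare. Their part in the family's values was not tested.

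All 5 guide strands had a lower CPM in the db/db library, by 2.17-fold to 5.31-fold. Together they had 171 CPM in db/db and 398 CPM in db/+, a pooled ratio of 0.431 (0.416 to 0.447), or 0.0171% and 0.0398% of the library. The family was a minor part of the microRNA pool in both.

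The most abundant member, miR-16-5p, had 3141 counts in db/db (129 CPM, counting interval 125 to 134) and 7273 in db/+ (281 CPM, 274 to 287). It was 2.17-fold lower in the db/db library, a ratio of 0.461 (0.442 to 0.480). In rank by level it stood 79th of all names in db/db and 58th in db/+. Directly beside it in db/db stood miR-342-3p at 135 CPM, miR-193b-5p at 132 CPM, miR-93-5p at 121 CPM and miR-341-3p at 120 CPM. In db/+ those 4 had 118, 111, 126 and 79.0 CPM, all below the 281 CPM of miR-16-5p. The ratio of miR-16-5p was 0.507, above 0.5, when all log2 ratios were centred on their median of -0.14, and 0.515 when centred instead on the median of microRNAs with a like GC count (-0.16).

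**Figure D1:**
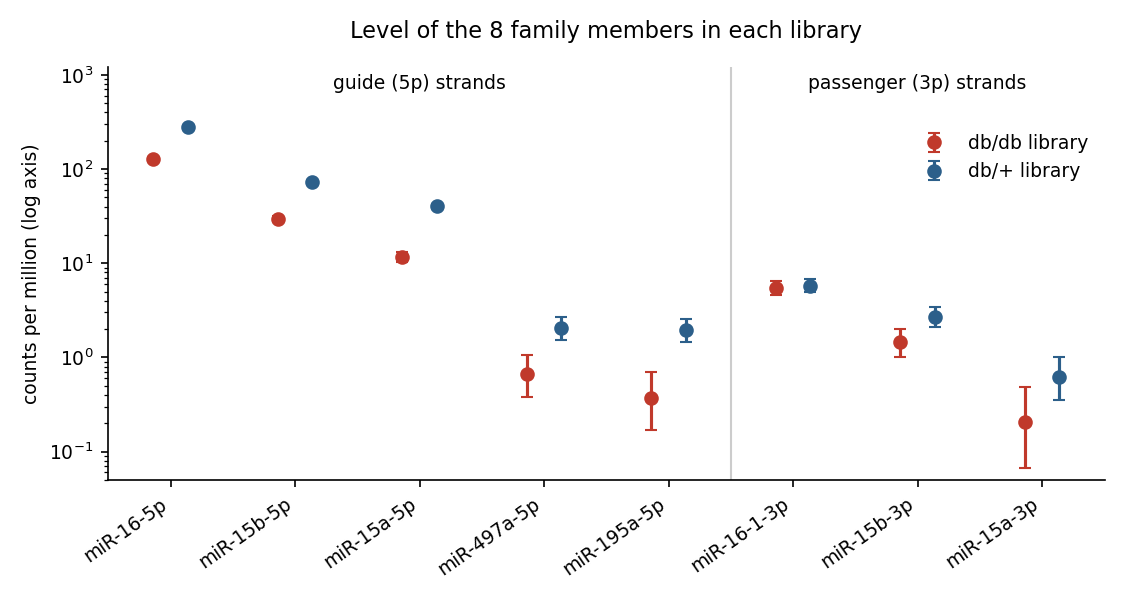
Level of each member in CPM on a log axis, with the db/db library (red) left of the db/+ library (blue); points are single libraries and bars are exact Poisson 95% intervals, which cover counting error only. The 5 guide strands lie lower in db/db, while the points of miR-16-1-3p nearly coincide at 5.47 CPM in db/db and 5.79 CPM in db/+.

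The miR-15 guides of both loci were lower as well. From the Dleu2 locus, miR-15a-5p had 285 counts in db/db (11.7 CPM) and 1050 in db/+ (40.5 CPM), a ratio of 0.290 (0.253 to 0.330). From the Smc4 intron, miR-15b-5p had 715 counts in db/db (29.4 CPM) and 1883 in db/+ (72.7 CPM), a ratio of 0.405 (0.371 to 0.442). The interval of miR-15a-5p lies below those of miR-15b-5p and miR-16-5p, and the intervals of miR-15b-5p and miR-16-5p meet at 0.442.

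The guides of the chromosome 11 cluster were scarce. For miR-195a-5p there were 9 counts in db/db (0.370 CPM) and 51 in db/+ (1.97 CPM), a ratio of 0.188 (0.0815 to 0.386). For miR-497a-5p there were 16 counts in db/db (0.659 CPM) and 53 in db/+ (2.05 CPM), a ratio of 0.322 (0.172 to 0.572). Pooled, the cluster had a ratio of 0.256 (0.159 to 0.3999) on 25 counts in db/db and 104 in db/+. Their 3p forms, miR-195a-3p and miR-497a-3p, had 0 counts in both libraries, and miR-497b from the opposite strand had 1 count in db/db and 5 in db/+, a ratio of 0.213 (0.00451 to 1.91).

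The passenger strands were unlike each other. For miR-16-1-3p there were 133 counts in db/db (5.47 CPM) and 150 in db/+ (5.79 CPM), a ratio of 0.946 (0.743 to 1.20) whose interval includes 1 and which ran from 0.985 to 1.01, on both sides of 1, under the 5 other scalings and was 1.04 after centring. For miR-15b-3p there were 35 counts in db/db (1.44 CPM) and 70 in db/+ (2.70 CPM), a ratio of 0.533 (0.345 to 0.811). For miR-15a-3p there were 5 counts in db/db (0.206 CPM) and 16 in db/+ (0.617 CPM), a ratio of 0.333 (0.0955 to 0.952). The last interval is wide, since it rests on few counts.

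The order of levels was the same in both libraries: miR-16-5p, miR-15b-5p, miR-15a-5p, miR-16-1-3p, miR-15b-3p, miR-497a-5p, miR-195a-5p and miR-15a-3p. The counting intervals of the first 4 were apart from those of their neighbours in each library. Those of miR-15b-3p, miR-497a-5p and miR-195a-5p overlapped from each to the next in both libraries. The interval of miR-15a-3p overlapped that of miR-195a-5p in db/db but lay below it in db/+, where it reached 1.003 CPM, against 1.47 to 2.59 CPM. Efficiency of adapter ligation can differ between sequences, and its part in these levels was not tested.

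Over all 8 members, with no floor, 8 ratios were below 1, 7 intervals lay below 1, 6 ratios were at most 0.5 and 0 were at least 2, and the median log2 ratio was -1.40. Over microRNAs of all kinds with no floor, 259 ratios were at most 0.5 and 171 at least 2, with 833 names detected in db/db and 881 in db/+. The shares that follow are past a floor, so they match the members past that floor and not all 8. Among the 356 microRNAs of all kinds that reached 50 counts in either library, 57% of ratios and 44.1% of intervals were below 1, 13.5% were at most 0.5 and 4.49% were at least 2, with a median log2 ratio of -0.14. That floor passed 7 members, all but miR-15a-3p. Of these 7, 7 ratios and 6 intervals were below 1, 5 ratios were at most 0.5 and 0 were at least 2. The floor passed miR-15b-3p, miR-195a-5p and miR-497a-5p through their db/+ counts alone, so their raw counts had to be lower in db/db and their number supports nothing. With a floor on both libraries together, at least 100 counts, 5 members passed and 3 of them, the guides miR-15a-5p, miR-15b-5p and miR-16-5p, were at most 0.5. Of all 336 microRNAs past that floor, 11.6% were at most 0.5. Of the 356, 39 had a ratio below that of miR-16-5p, 29 below that of miR-15b-5p and 14 below that of miR-15a-5p.

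**Figure D2:**
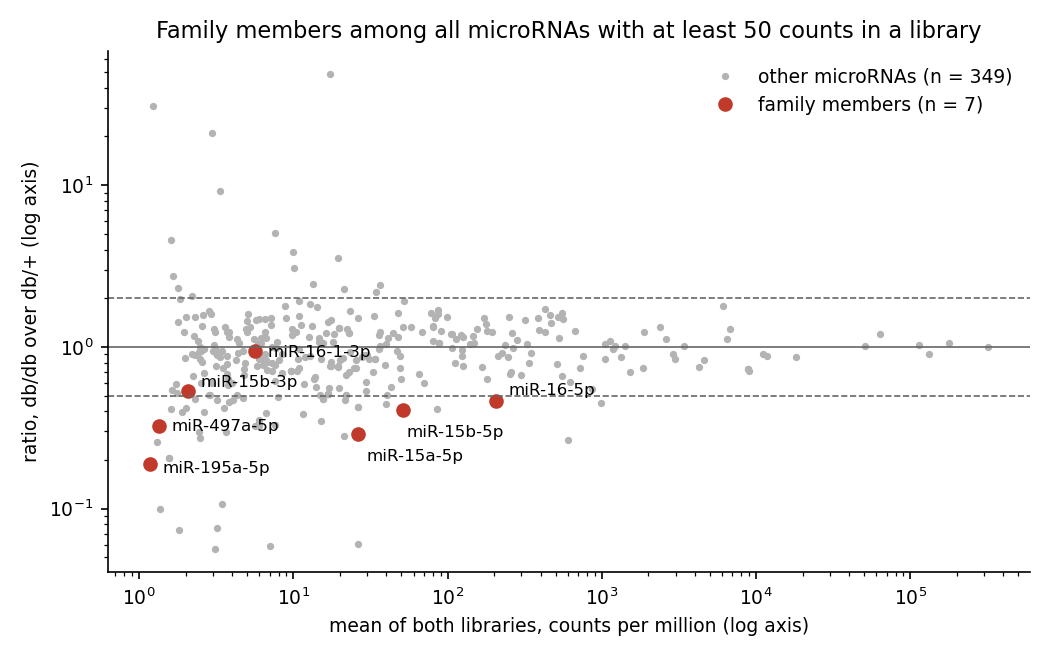
Ratio of db/db over db/+ (log axis) against the mean CPM of both libraries (log axis) for microRNAs that reached 50 counts in either library; red points are the 7 members past this floor, grey points the rest, and dashed lines mark ratios of 0.5 and 2. The members run from 0.188 for miR-195a-5p to 0.946 for miR-16-1-3p, all below the line at 1.

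**Figure D3:**
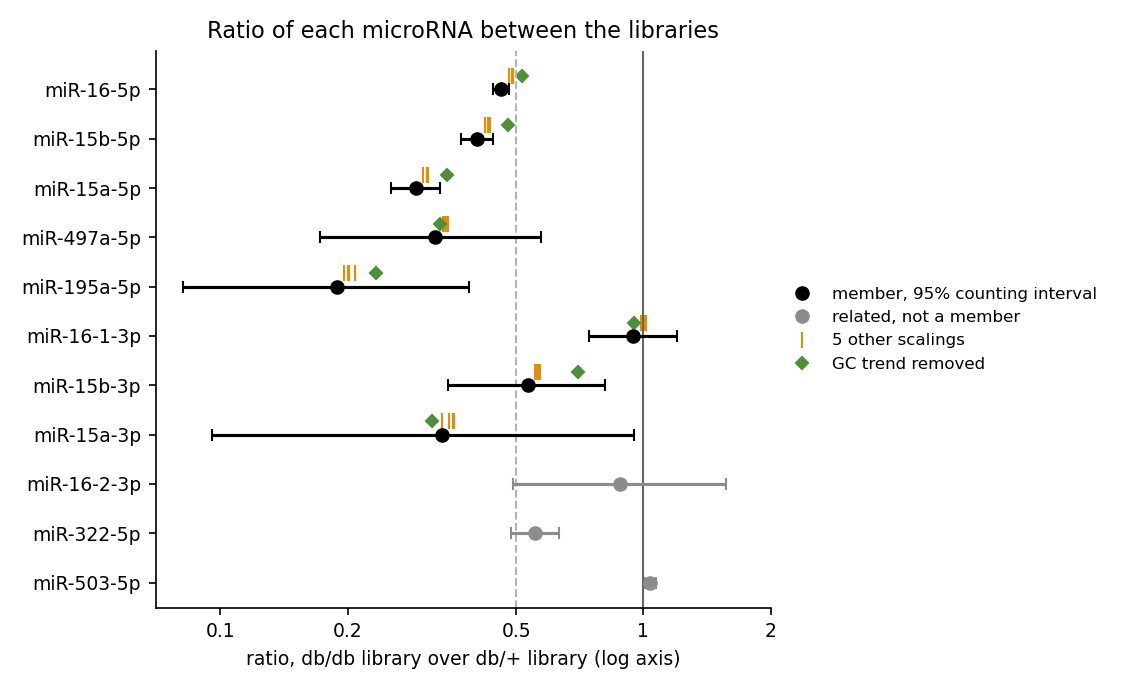
Ratio of each microRNA (log axis) with its exact 95% counting interval; black marks members, grey the related miR-16-2-3p, miR-322-5p and miR-503-5p, orange ticks the ratio under 5 other scalings and green diamonds the ratio after centring on microRNAs of a like GC count. The ticks of miR-16-5p stay left of the dashed line at 0.5 and its diamond lies right of it, at 0.515.

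Within a library the proportions of the guides can be compared without any scaling. Per count of miR-15a-5p there were 11.0 counts of miR-16-5p in db/db (9.76 to 12.5) and 6.93 in db/+ (6.49 to 7.40), a 1.59-fold change (1.38 to 1.83). Per count of miR-15b-5p there were 4.39 counts of miR-16-5p in db/db (4.05 to 4.77) and 3.86 in db/+ (3.67 to 4.07), a change of 1.14-fold (1.03 to 1.25). The guides of the 2 pairs thus moved unequally: miR-15b-5p per miR-15a-5p was 2.51 in db/db and 1.79 in db/+, a change of 1.40-fold (1.19 to 1.64). As a share of the 5 guides, miR-16-5p took 75.4% in db/db (74.1 to 76.7) and 70.5% in db/+ (69.7 to 71.4). The share of miR-15a-5p was 6.84% in db/db (6.09 to 7.65) and 10.2% in db/+ (9.61 to 10.8), and that of miR-15b-5p 17.2% in db/db (16.03 to 18.3) and 18.3% in db/+ (17.5 to 19.0), with overlapping intervals. Per 1000 counts of its near copy miR-16-5p, miR-195a-5p had 2.87 counts in db/db (1.31 to 5.45) and 7.01 in db/+ (5.22 to 9.23).

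Passenger strands of both miR-16 hairpins had higher ratios than the guide, though miR-16-2-3p had few counts and a wide interval. The chromosome 3 form, miR-16-2-3p, which is not among the 8 members, had 24 counts in db/db (0.988 CPM) and 29 in db/+ (1.12 CPM), a ratio of 0.883 (0.492 to 1.57). Per 1000 counts of miR-16-5p, miR-16-1-3p had 42.3 counts in db/db (35.3 to 50.4) and 20.6 in db/+ (17.4 to 24.2), a change of 2.05-fold (1.61 to 2.62). Likewise miR-16-2-3p had 7.64 in db/db (4.89 to 11.4) and 3.99 in db/+ (2.67 to 5.73), a change of 1.92-fold (1.07 to 3.41). Both forms share miR-16-5p as denominator, so these changes are not independent. The proportion of the 3p forms to each other was 5.54 in db/db and 5.17 in db/+, a change of 1.07-fold (0.571 to 2.03).

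The miR-15 hairpins showed no such difference beyond counting error. Per 1000 counts of miR-15b-5p, miR-15b-3p had 49.0 in db/db (33.8 to 68.7) and 37.2 in db/+ (28.9 to 47.2), a change of 1.32-fold (0.843 to 2.02). Per 1000 counts of miR-15a-5p, miR-15a-3p had 17.5 in db/db (5.65 to 41.4) and 15.2 in db/+ (8.68 to 24.9), a change of 1.15-fold (0.327 to 3.32). Both intervals include 1 and also 2. The guide made up 98.3% of miR-15a counts in db/db (96.0 to 99.4) and 98.5% in db/+ (97.6 to 99.1), and 95.3% of miR-15b counts in db/db (93.6 to 96.7) and 96.4% in db/+ (95.5 to 97.2). A minor arm at least 2-fold higher relative to its major arm was not rare in these libraries. Among 126 hairpins with at least 20 counts on each arm over both libraries, which include those of miR-15a and miR-15b, 12 had such a change, 9.52%, and each of these 12 exceeded that of miR-16-1-3p.

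**Figure D4:**
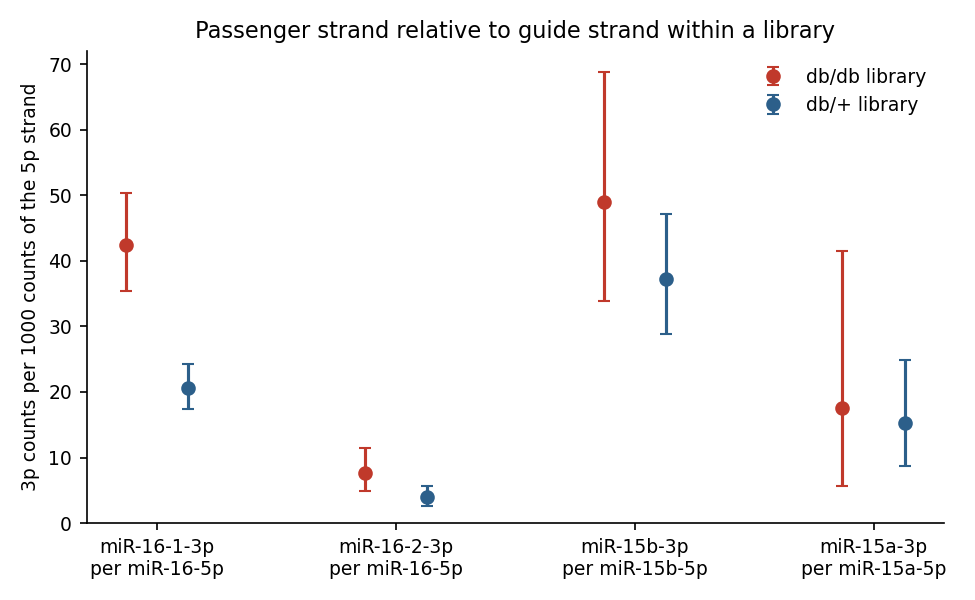
Counts of the 3p strand per 1000 counts of the 5p strand within each library, db/db (red) left of db/+ (blue), with exact 95% counting intervals. The intervals of miR-16-1-3p per miR-16-5p are apart, 35.3 to 50.4 in db/db and 17.4 to 24.2 in db/+, and those of the miR-15 hairpins overlap.

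Grouped by locus, using only strands that belong to 1 locus, the chromosome 14 pair (miR-15a-5p, miR-15a-3p, miR-16-1-3p) had a pooled ratio of 0.371 (0.331 to 0.415), on 423 counts in db/db and 1216 in db/+. The chromosome 3 pair (miR-15b-5p, miR-15b-3p, miR-16-2-3p) had 0.417 (0.383 to 0.453), on 774 counts in db/db and 1982 in db/+. The intervals overlap, and both sums are mostly the miR-15 guide. Within the chromosome 14 pair the strands did not move together: per 1000 counts of miR-15a-5p, miR-16-1-3p had 467 counts in db/db (377 to 575) and 143 in db/+ (120 to 170).

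The seed of miR-16-5p is carried by at least 10 names in the tables, going by RefSeq, which gave a sequence for 1623 of the 1909 names. Besides the 5 guides these are the X-linked miR-322-5p, and miR-195b, miR-6342, miR-6353 and miR-6419, which had 0 counts in both libraries. The sequences of miR-322-5p and its cluster neighbour miR-503-5p are given because miR-503-5p differs in the last base of the seed, again in capitals.
miR-322-5p: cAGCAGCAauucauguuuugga
miR-503-5p: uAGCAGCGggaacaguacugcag
For miR-322-5p there were 343 counts in db/db (14.1 CPM) and 660 in db/+ (25.5 CPM), a ratio of 0.554 (0.485 to 0.633) that lies above the intervals of the guides miR-16-5p, miR-15b-5p and miR-15a-5p. For miR-503-5p there were 8134 counts in db/db (335 CPM) and 8360 in db/+ (323 CPM), a ratio of 1.04 (1.01 to 1.07). As a sum, the 10 names with the seed of miR-16-5p had 4509 counts in db/db (186 CPM) and 10970 in db/+ (423 CPM), a ratio of 0.438 (0.423 to 0.454). With a seed of bases 2 to 7, which adds miR-503-5p, the sum had 520 CPM in db/db and 746 CPM in db/+ and a ratio of 0.698 (0.682 to 0.714).

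All microRNAs with a RefSeq sequence, 286 of the 356 past the floor, were grouped in the same way, so groups that include microRNAs without a sequence here are incomplete. Of 232 seed groups with at least 50 counts in a library, 9.91% had a ratio of at most 0.5, and the miR-16 seed group was the 18th lowest. Among the 16 groups with at least 3 detected names it had the lowest ratio. That place holds only for names with a sequence here. Names without one were not ranked. They lay on both sides of it, such as miR-669l-5p at 0.275, miR-669a-5p and miR-669p-5p at 0.327, and miR-669c-5p at 1.04. The next was a group of let-7 and miR-98 passenger strands at 0.522 (0.387 to 0.6997), on 70 counts in db/db and 143 in db/+. After it came the group of miR-34a-5p, miR-34b-5p, miR-449a-5p and miR-449c-5p at 0.542 (0.502 to 0.585), on 1001 counts in db/db and 1969 in db/+. That group lacks its relative miR-34c-5p, which had no sequence here. With 30338 counts in db/db and 46304 in db/+, miR-34c-5p far outnumbered the group and had a ratio of 0.699 (0.689 to 0.709). Among the 35 groups with at least as many counts, the group of miR-146a-5p and miR-146b-5p was lower, at 0.276 (0.269 to 0.284). Its 2 names went opposite ways: miR-146b-5p, with a mean of 605 CPM over both libraries, had a ratio of 0.264. The scarcer miR-146a-5p, with a mean of 7.59 CPM, had 5.05.

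**Figure D5:**
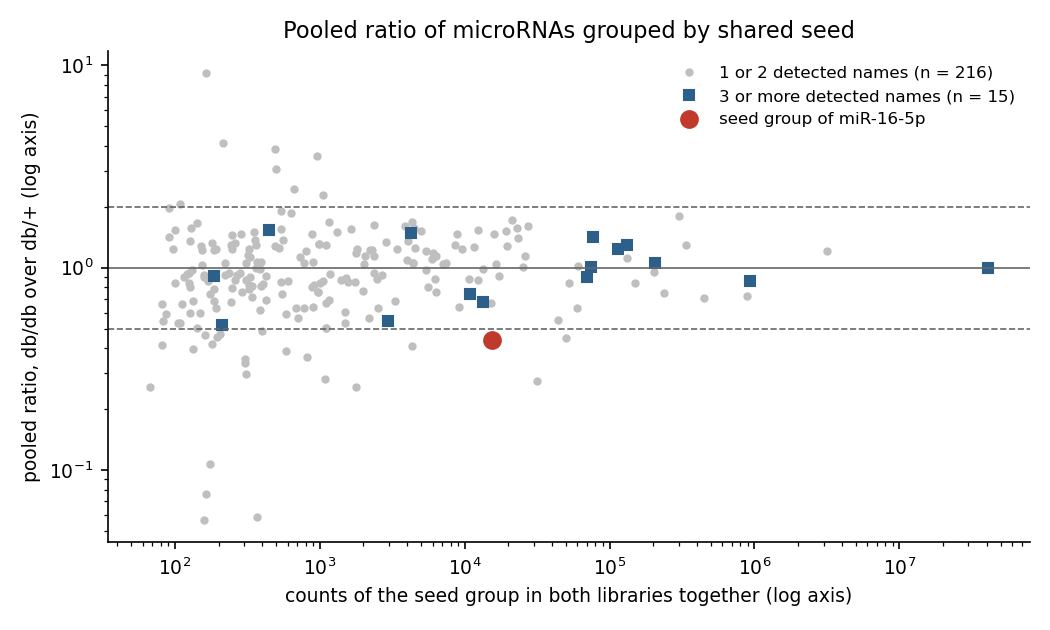
Pooled ratio of db/db over db/+ (log axis) of microRNAs that share bases 2 to 8, against their counts in both libraries together (log axis); the red point is the seed group of miR-16-5p, blue squares the 15 other groups with at least 3 detected names, and grey points groups with 1 or 2. The red point lies at 0.438, below all blue squares, of which the lowest is at 0.522. MicroRNAs without a RefSeq sequence are in none of the groups shown.

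Other microRNAs known for acting on cyclins, cyclin-dependent kinases and their regulators were set beside the family, from a list of 26 chosen by role that also holds miR-322-5p and miR-503-5p. Of these, 25 passed the floor of 50 counts, 18 with a ratio below 1 and 7 above. At most 0.5 were 2, miR-17-5p at 0.442 (0.401 to 0.487) and miR-20a-5p at 0.467 (0.410 to 0.532), both known as promoters of growth, and 0 were at least 2. The median log2 ratio was -0.35, against -0.14 over all microRNAs past the floor. Of all those microRNAs, 57% had a ratio below 1, 13.5% at most 0.5 and 4.49% at least 2. Near 1 were let-7a-5p at 1.03 and miR-92a-3p at 1.02, and among the intermediate values were miR-26a-5p at 0.661 and miR-106b-5p at 0.703. The offset-seed relatives miR-103-3p and miR-107-3p had ratios of 0.7502 (0.744 to 0.757) and 0.784 (0.765 to 0.804).

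Over these 2 libraries the microRNAs closest in log2 ratio to the pooled guides, among those with at least 1000 counts in both together and outside the family, were miR-669o-3p and miR-669a-3p, whose counts were the same in each library. Each had 15.6 CPM in db/db and 36.8 CPM in db/+, 0.02 from the guides on the log2 scale. Next were miR-17-5p with 24.2 CPM in db/db and 54.9 CPM in db/+ (0.04 away), miR-129-2-3p with 617 CPM in db/db and 1368 CPM in db/+ (0.07) and miR-674-5p with 49.6 CPM in db/db and 121 CPM in db/+ (0.07). With 1 library a group this likeness is the ratio alone.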

How the data were processed

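Per the file headers, the deposited tables hold raw counts and reads normalized by TMM (trimmed mean of M values) for 1909 mature microRNAs in each of 2 libraries. The deposited normalized reads are rounded whole numbers, treated as a score and used in 1 alternative scaling. Novoalign, edgeR and mm10 appear in the submitters' processing notes; their versions and roles, and the trimming and multi-mapping rules, are not given in the sources used here.

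Counts were scaled to the library total as CPM. Ratios have exact conditional (Clopper-Pearson) 95% intervals, levels exact Poisson intervals, shares exact binomial intervals, and changes of within-library proportions exact conditional odds ratio intervals (scipy 1.17.1). Reads lack molecular identifiers, so intervals cover counting error only, and a count of 0 was taken to allow 3 counts. No test is possible with 1 library per group, so no p-value is given. Log2 ratios had 0.5 counts added. For hairpin arms, 0.5 counts were added to each arm. For the GC alternative, the median log2 ratio of microRNAs past the floor within 1 G or C base was subtracted, which also centres the ratios; centring on all microRNAs past the floor, without GC, was added after seeing the data. Scaling factors came from edgeR 4.0.16 and DESeq2 1.42.0. Sequences were matched by name to RefSeq (GRCm38.p6) for 1623 of 1909 names and all 8 members, and loci to GENCODE M21. The intervals were tested on simulated Poisson counts, the model they assume, so that check does not bear on variation between cultures or libraries. Members, lists and the floors were chosen with earlier results of these data known. Named microRNAs were the members, other forms of their hairpins, same-seed names, miR-322-5p and miR-503-5p, the 5 nearest in ratio, the 2 on each side of miR-16-5p in level and the role and marker lists; others, including further seed groups, were chosen after their values were seen.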

Additional observations from a re-analysis of the deposited data

How the results depend on the processing

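The 5 other scalings moved the ratio of miR-16-5p up by 0.06 to 0.10 on the log2 scale. Each of them put the pooled guide and seed group ratios above the upper ends of their main counting intervals, 0.447 and 0.454. The pooled guide ratio was 0.458 with edgeR TMM factors and with the deposited TMM reads, 0.459 with DESeq2 size factors, 0.461 with upper-quartile factors, 0.449 without the 10 most abundant microRNAs in the total, 0.475 with log2 ratios centred on the median of all microRNAs (a shift of 0.14 on the log2 scale, added after seeing the data), and 0.360 without miR-16-5p. The seed group ratio was 0.466 with both TMM scalings, 0.467 with DESeq2, 0.469 with upper quartile, 0.457 without the 10 most abundant, 0.483 with centring and 0.698 with the seed of bases 2 to 7. It was also 0.438 with identical counts taken once. The floor of 50 counts passed miR-15b-3p, miR-195a-5p and miR-497a-5p through their db/+ counts alone, so member counts and medians that include them support nothing. Past the floor, 5 of 7 members had a ratio of at most 0.5 under each of the 5 scalings and 4 of 7 with centring. At a floor of 100 counts it was 3 of 4, at 100 counts in both libraries together, also added later, 3 of 5, at a floor of 10 and with none 6 of 8, and at 1.5-fold 6 of 7. The number at least 2-fold higher was 0 under every alternative run. The median log2 ratio of members past the floor was -1.30. It was -1.06 with the GC medians subtracted, -1.16 with centring and -1.12 at 100 counts in both libraries together, and between -1.40 and -1.21 otherwise. Of 56 alternative ratios of single members, 47 lay inside the main counting interval and 9 outside, and 5 crossed 1, all of miR-16-1-3p, whose interval includes 1. Subtracting GC medians also centres the ratios: miR-15a-5p had 0.319 with centring alone and 0.343 with GC medians, miR-15b-5p 0.446 and 0.479, and miR-16-5p 0.507 and 0.515. Counts over all microRNAs followed the thresholds. Of the 356 past the floor of 50, 48 were at least 2-fold lower and 16 higher. Under the 5 scalings 42 to 46 of them were lower and 18 or 19 higher, and with centring 38 and 20. A fold of 1.5 gave 86 lower and 48 higher of the same 356. At 100 counts in both libraries together, 39 of 336 were lower and 12 higher. A floor of 100 gave 35 lower and 11 higher, a floor of 10 gave 91 and 46, and leaving out the floor gave 259 and 171. The totals past these last floors are not given here, so their shares are not either. No paired analysis was possible because there was a single library of either genotype, so none could be left out. Depth limits miR-195a-5p, miR-497a-5p and miR-15a-3p most, each with under 20 counts in db/db.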

Other observations

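The passenger strands of the miR-15 and miR-16 hairpins have seeds of their own, unlike the guide seed. Bases 2 to 8 of miR-15a-3p, miR-15b-3p, miR-16-1-3p and miR-16-2-3p were each found in 0 other names of the tables that had a RefSeq sequence. Pooled, the 3 passenger members had a ratio of 0.782 (0.639 to 0.955), on 173 counts in db/db and 236 in db/+, of which miR-16-1-3p made up most in both libraries. The 2 miR-16 passenger forms together had 157 counts in db/db and 179 in db/+, a ratio of 0.936 (0.7503 to 1.17).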
